A study of Mus musculus with 6 samples.

Results

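Foxo1, Foxo3 and Foxo4, which encode the FoxO transcription factors, were followed in mouse hematopoietic stem cells (HSCs) together with 7 genes known as FoxO targets or as brakes on the cell cycle, namely Sesn1, Sesn3, Txnip, Ccng2, Btg1, Klf2 and Cited2. The genes were picked by symbol, and all 10 were found among the 21878 rows of each library. HSCs had been sorted from the bone marrow (BM) of wild-type (WT) mice, without irradiation as far as the treatment labels state. The Control group holds 3 RNA-seq libraries of vehicle-treated mice, and the IGF1 group holds 3 libraries of mice taken the day after a single subcutaneous dose of insulin-like growth factor 1. The treatment label of the second group reads IGF1, whereas its extraction text speaks of irradiated mice; it was taken as IGF1. The age of the mice, and whether a library came from 1 mouse or a pool, are not given in the sources used here, so p-values measure only the spread between these libraries.

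FoxO factors are kept out of the nucleus when growth factor signaling is on. IGF1 binds its receptor, PI3K and AKT are activated, AKT phosphorylates the FoxO protein, and the phosphorylated protein is held in the cytoplasm. When the signal is low, FoxO factors enter the nucleus and turn on genes for cell cycle arrest, antioxidant defense and restraint of mTOR, and in HSCs this activity is known to preserve quiescence. Because the switch acts on the protein, the RNA of a FoxO gene is not a measure of FoxO activity, and the RNA of target genes is only an indirect one.

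Promoter sequences are shown for the 4 genes in which a FoxO motif was found near the start of transcription. RefSeq promoters (GRCm38.p6, 250 bases before to 50 bases after the start) were matched by symbol for 9 of the 10 genes, Sesn1 having a pair of start sites, and Foxo4 had no entry in the table. Each was searched on both strands for GTAAACA, the core of the element bound by FoxO factors, and for CAAAACA and CAAAATA, insulin response sequences. The 3 motifs do not overlap one another in these windows. GTAAACA was found in 3 of the 10 promoters, against 3.65% of all 32851 promoters of the same length, CAAAACA in 1 of the 10 against 6.28%, and CAAAATA in 0 of the 10 against 4.36%. Capitals mark the motif, written as it reads 5′ to 3′ on the strand of the gene.
Txnip, chr3:96557797-96557896, plus strand, match 121 bases before the start: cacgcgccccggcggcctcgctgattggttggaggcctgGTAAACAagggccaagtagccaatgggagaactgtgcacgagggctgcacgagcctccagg
Btg1, chr10:96616771-96616850, plus strand, match 204 bases before the start and in reverse: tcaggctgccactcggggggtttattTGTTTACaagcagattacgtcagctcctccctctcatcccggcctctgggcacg
Sesn1, chr10:41810586-41810607, plus strand, match from base 23 of the transcript and in reverse: aaccttctacTGTTTACcagcc
Ccng2, chr5:93267547-93267572, plus strand, match 16 bases before this start and within an exon of another Ccng2 transcript: gtcgcagactCAAAACAaaaacaagg
A match of 7 letters is a description of the sequence and not evidence that a factor binds it. Of these 4 genes, Sesn1 and Ccng2 fell in the IGF1 libraries, Txnip was lower without passing the test, and Btg1 overlapped between the groups (values below). The other 5 genes with a promoter in the table had none of these letters in the window.

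Levels are in FPKM (fragments per kilobase of transcript and per unit of library depth), so they can be set side by side between genes. Between 11236754 and 16022028 fragments per library fell on listed genes, as recovered from the values. A gene was tested if 3 or more libraries had 1 FPKM or more of it, which 10449 genes did, including 9 of the 10 studied here, and the test was limma on log2(FPKM + 1). Total FPKM was not equal between libraries. Over all genes tested it was 465341, 634040 and 464867 in Control replicates 1 to 3 and 676733 to 679206 in the IGF1 libraries. Fold changes in FPKM are relative to these unequal totals, and scaling to equal totals was not tested. Calls needed more than a 2-fold difference and a Benjamini-Hochberg adjusted p under 0.05, and all log2 fold changes are IGF1 over Control on that scale, which understates the change of low genes. Control replicate 2 stood apart from the other controls, with a first principal component score of 17.8 against -64.7 and -64.8 for replicates 1 and 3 and 36.6 to 37.8 for the IGF1 libraries. Over 2-fold differences separated it from replicate 1 in 4178 of the 12037 genes for which both together had 20 reads or more, and from each IGF1 library in 850 to 920. Control replicates 1 and 3 differed from each other in 128 of 12040 genes, with a mean chi-square per gene of 1.52, more than sampling noise gives, and were kept as separate samples. The results for the 10 genes are therefore given with all 6 libraries and without Control replicate 2, and the other gene lists with their counts for both.

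RNA of the markers that the sort selected for was present, and so was RNA of markers it selected against. HSCs had been gated as Lineage-, Sca-1+, c-Kit+, Flt3- and CD34-. Ly6a, which encodes Sca-1, was at 219, 615 and 231 FPKM in the Control libraries in replicate order and at 374 to 387 FPKM in the IGF1 libraries. RNA of Cd34 stood at 640, 265 and 634 FPKM with vehicle and at 230 to 238 FPKM after IGF1, and RNA of Flt3 at 117 to 188 FPKM in all 6. Kit, which encodes c-Kit, was at 105, 31.4 and 104 FPKM with vehicle and 24.2 to 24.6 FPKM after IGF1. Of 11 HSC and sort genes 0 were called in limma, where 6.61% of all genes were, and 6 had an unadjusted p under 0.05, against 53.4%. Without Control replicate 2, 5 were called, all lower, where 32.9% of all genes were. Among them were Kit (log2 fold change -2.06) and Cd34 (-1.45). Slamf1 and Fgd5, which mark HSCs, had at most 2.41 FPKM in any library. Of the markers of other lineages, only some of neutrophils and monocytes and of megakaryocytes and platelets were called with all 6 libraries. Neutrophil and monocyte markers (4 of 10 tested called, all lower) summed to 2314 to 2834 FPKM with vehicle and 2798 to 2809 after IGF1, of which Mpo made up 1613 to 1705 FPKM in the 6 libraries. Elane was not among the 4, at 92.8, 576 and 92.4 FPKM with vehicle and 692 to 709 FPKM after IGF1 (log2 fold change 2.03, adjusted p = 0.0726), nor was Ly6c2, at 26.7, 379 and 29.6 FPKM and then 340 to 347 FPKM (2.33, adjusted p = 0.107). Both of them were called higher without Control replicate 2, giving 2 higher and 5 lower among the 10. The sums were for B cell markers (0 of 6 called) 111 to 423 FPKM with vehicle and 390 to 406 after IGF1, and for erythroid markers (0 of 7 called) 42.1 to 114 and 57.3 to 63.3. The sums for T and NK cell markers (0 of 3 called, nearly all of it Nkg7) were 361 to 780 FPKM with vehicle and 770 to 790 after IGF1, for megakaryocyte and platelet markers (1 of 7 called, higher) 60.4 to 80.2 and 99.3 to 109, and for stromal and endothelial markers (0 of 1 called) 18.1 to 36.1 and 21.9 to 23.2. Leaving out Control replicate 2 gave 3 megakaryocyte and platelet, 4 B cell and 1 T and NK cell markers called, all higher, and 0 erythroid or stromal and endothelial ones. In the IGF1 libraries Ly6g, Cd8a, Ncr1, Cdh5 and Pdgfra were listed at 0. The part of these differences in the results below was not tested. In sorted bulk samples, fewer cells of a type and less RNA per cell cannot be told apart.

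Among the 10 genes, Ccng2 and Sesn1 fell in HSCs of IGF1-treated mice, to 0.41 and 0.43 of their Control means, and no gene was called higher. Klf2 came closest to a rise, being 1.81-fold higher in the IGF1 group with an adjusted p below 0.05 but short of the 2-fold threshold. Foxo3 and Foxo4 were higher in every IGF1 library than in every Control library, Txnip was lower in every one, and Foxo1, Sesn3, Btg1 and Cited2 overlapped between the groups. In counts, 2 of 9 tested genes were called lower and 0 higher, where 4.63% of all 10449 genes tested were called lower and 1.98% higher (6.61% in either direction). At an unadjusted p under 0.05, 5 of the 9 passed, against 53.4% of all genes. The adjusted p alone was passed by Klf2 as well, hence by 3 of the 9, against 20.4%. The groups did not overlap in 5 of the 9, 2 higher and 3 lower, where 59.4% of all genes did not (21.9% higher and 37.4% lower). The median log2 fold change of the 9 genes was 0.02, beside -0.18 over all genes tested, which means that the median gene was itself below 0 on this scale. Without Control replicate 2, the same 2 genes were called lower and Klf2 was called higher, at backgrounds of 20.6% lower and 12.3% higher (32.9% in either direction). The adjusted p alone was then passed by 6 of the 9, all but Foxo1, Btg1 and Cited2, against 88.5% of all genes. Fold changes of the 9 genes are plotted with all genes tested and under 4 fits.

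**Figure D1:**
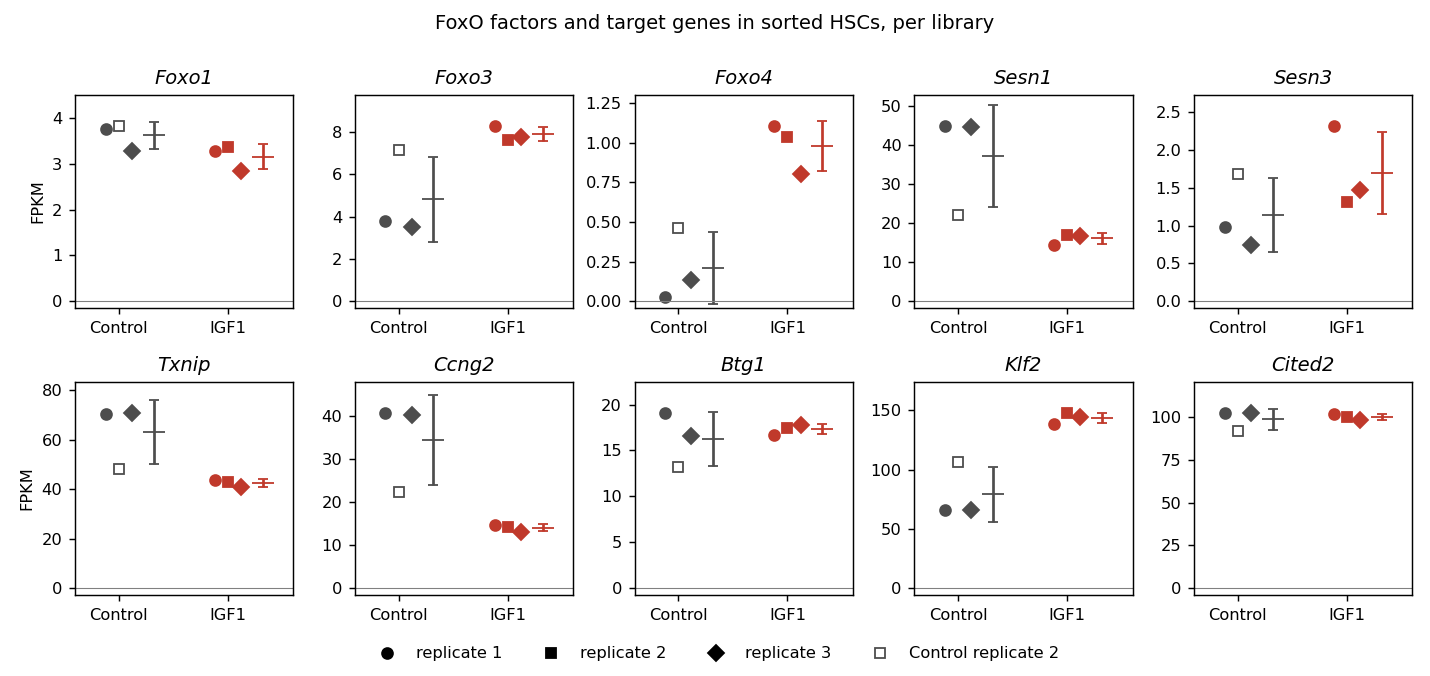
FPKM of the 10 genes in each library (points, Control in grey and IGF1 in red, marker shape for the replicate number, open square for Control replicate 2), with the mean ± SD of each group beside them (n = 3). The open square lies inside the gap between the filled grey and the red points in Foxo3, Foxo4, Sesn1, Txnip, Ccng2 and Klf2, while Cited2 is near 100 FPKM in every library, from 91.8 to 102.

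**Figure D2:**
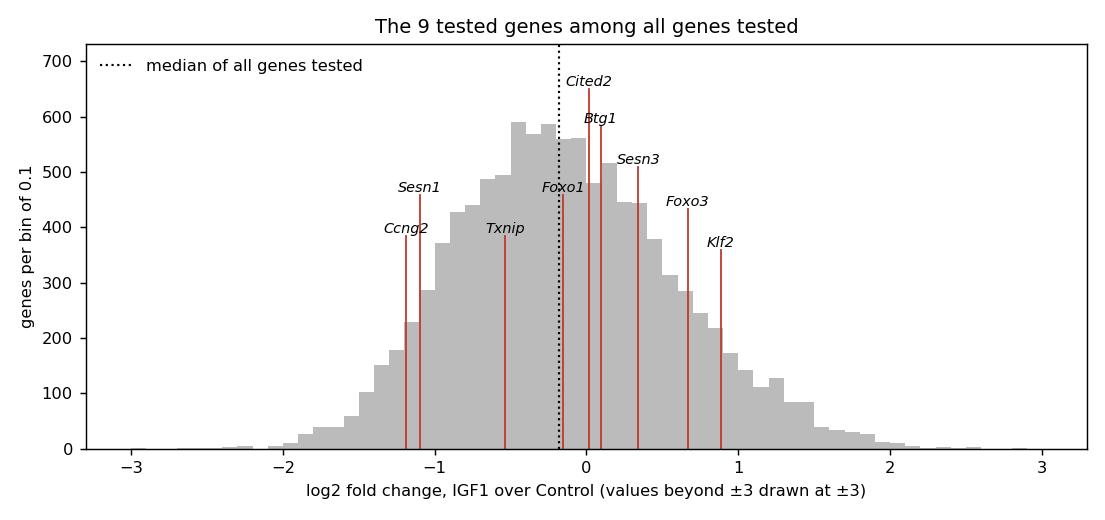
Histogram of the log2 fold change (IGF1 over Control) of all 10449 genes tested, in bins of 0.1, with red lines at the 9 tested genes and a dotted line at the median of all genes, -0.18. Ccng2 and Sesn1 lie in the lower tail (6.27% and 8.20% of genes at or below them) and Klf2 in the upper one (91.1% at or below it).

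The FoxO factors themselves went different ways. Levels are given in the order of replicates 1 to 3 throughout. Foxo3, the family member best known for keeping HSCs quiescent (chr10:42181841-42276755, minus strand, GRCm38, GENCODE M21), stood at 3.78, 7.15 and 3.52 FPKM with vehicle and at 8.29, 7.66 and 7.77 FPKM in the IGF1 libraries. All 3 IGF1 libraries lay above all 3 controls, Control replicate 2 being just below them. The group means were 4.82 ± 2.02 and 7.91 ± 0.34 FPKM (SD, n = 3 each), a 1.64-fold difference. Its log2 fold change of 0.67 (SE 0.24) did not pass (adjusted p = 0.0762). Without Control replicate 2 it was 0.94 (SE 0.07, adjusted p = 3.6e-07), short of the fold threshold on this scale, although the ratio of the mean FPKM values was then 2.17. With recovered reads tested by voom, a setting chosen after seeing the data, Foxo3 passed both thresholds once Control replicate 2 was left out (log2 fold change 1.12).

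Foxo1 (chr3:52268336-52353221, plus strand), which shares many targets with Foxo3, had 3.75, 3.82 and 3.29 FPKM with vehicle and 3.27, 3.36 and 2.84 FPKM after IGF1. The ranges overlapped, with the lowest control level below 1 IGF1 library. The log2 fold change of -0.15 (SE 0.12, adjusted p = 0.290) was close to the median of all genes, and it was -0.12 without Control replicate 2 (adjusted p = 0.199). Its sign turned with scaling to the 75th percentile (0.04). An antisense gene, Gm20402, overlaps Foxo1 in the annotation and has no row of its own, and whether reads were counted by strand is not given in the sources used here.

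Foxo4 (chrX:101254528-101260873, plus strand) was the lowest of the 3 factors, at 0.0248, 0.465 and 0.136 FPKM with vehicle and 1.11, 1.04 and 0.801 FPKM in the IGF1 libraries. These values rest on 2, 27 and 11 recovered reads in the controls and on 69, 59 and 52 after IGF1. The groups did not overlap (exact permutation test, 2-sided, p = 0.1, the smallest p that 3 against 3 libraries allow). It reached 1 FPKM in only 2 libraries, so it was outside the main test. Fitted without a filter it had a log2 fold change of 0.73 (SE 0.14, adjusted p = 0.0408), and of 0.87 (SE 0.09) without Control replicate 2. For the lowest and highest libraries, the exact 95% Poisson intervals, counting error only, were far apart. They were 0.242 to 7.22 for the 2 reads of Control replicate 1 and 53.7 to 87.3 for the 69 reads of IGF1 replicate 1. For the nearest libraries they overlapped, in reads and in FPKM. The 27 reads of Control replicate 2 had 17.8 to 39.3, and the 52 of IGF1 replicate 3 had 38.8 to 68.2. Counting error alone therefore does not separate every control from every IGF1 library. Foxo6, the remaining family member, was listed at 0 in all 6 libraries.

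The order of the family by level was Foxo3, Foxo1, Foxo4 in every IGF1 library, where Foxo3 exceeded the highest Foxo1 level by more than the spread of either. In Control replicates 1 and 3 Foxo3 and Foxo1 were close to each other, and those neighbors did not differ beyond their spread, whereas the Foxo3 level of Control replicate 2 was close to those of the IGF1 libraries. Among the tested genes, those with the pattern most like Foxo3 over the 6 libraries were Setd7, Whsc1 and Mrpl4 (Pearson r of 0.9996, 0.9995 and 0.9993 on log2 values), but 7.44% of all genes had an r over 0.99 with it. The nearest to Foxo4 were N4bp3, Stub1 and Coa4 (r of 0.998, 0.997 and 0.997, with 0.249% of genes over 0.99), and the nearest to Foxo1 were Rwdd3, H2-T24 and Ube2z (r of 0.978, 0.978 and 0.977, with 0 genes over 0.99). These correlations describe 6 points that fall into groups and share their depth and scaling.

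Of the sestrins and the redox gene Txnip, only Sesn1 was called. Sesn1 (chr10:41809935-41908424, plus strand) encodes a stress-induced protein that restrains mTORC1 through AMPK and GATOR2, and it lies 273416 bases from Foxo3. It stood at 44.8, 22.1 and 44.6 FPKM with vehicle and at 14.5, 17 and 16.6 FPKM in the IGF1 libraries. Every IGF1 library lay below every control, and the nearest was Control replicate 2. The Control mean of 37.1 ± 13.0 FPKM was 2.32-fold that of the IGF1 group (16.0 ± 1.4; SD, n = 3 each), with a log2 fold change of -1.10 (SE 0.29, adjusted p = 0.0481). Without Control replicate 2 this was -1.43 (SE 0.06, adjusted p = 1.3e-08). The call sat at the edge of both thresholds, since leaving out any of the other 5 libraries gave -0.93 to -1.14 with adjusted p from 0.157 to 0.165, and scaling to the 75th percentile gave -0.85 (adjusted p = 0.0476).

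Sesn3 (chr9:14275067-14333101, plus strand), the sestrin most often described as a direct FoxO target, was low. It had 0.983, 1.69 and 0.747 FPKM with vehicle and 2.32, 1.31 and 1.47 FPKM after IGF1, from 26 to 62 reads per library. The groups overlapped through Control replicate 2, which was above 2 of the IGF1 libraries. The log2 fold change was 0.34 (SE 0.21, adjusted p = 0.219), and 0.52 (SE 0.15, adjusted p = 0.00719) without Control replicate 2, where it stayed short of the 2-fold threshold. Sesn3 passed the filter on low values through the 3 IGF1 libraries and Control replicate 2. The Sesn1 and Sesn3 differences had opposite signs, and the RNA of Sesn1 exceeded that of Sesn3 in every library.

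Txnip (chr3:96557957-96561883, plus strand) encodes a protein that binds thioredoxin and limits glucose uptake, and it carried the FoxO motif shown above. It had 70.2, 48.2 and 70.8 FPKM with vehicle and 43.7, 43.0 and 40.8 FPKM in the IGF1 libraries. The groups did not overlap, though Control replicate 2 was the nearest to the IGF1 libraries. The Control mean was 1.48-fold the IGF1 mean, with a log2 fold change of -0.54 (SE 0.17, adjusted p = 0.0604). Leaving out Control replicate 2 gave -0.72 (SE 0.04, adjusted p = 6.2e-08), below 2-fold in either fit. The antisense gene Gm15441 overlaps Txnip and has no row of its own.

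The restraints of the cell cycle and of growth were 1 gene that fell, Ccng2, and 1 that was not called, Btg1. Ccng2 (chr5:93267257-93276231, plus strand) encodes cyclin G2, an unusual cyclin that holds cells in arrest, and it is a known FoxO target. It was at 40.6, 22.3 and 40.1 FPKM with vehicle and at 14.7, 14.2 and 13.1 FPKM in the IGF1 libraries. All IGF1 libraries were below all controls, and Control replicate 2 was again the nearest. The Control mean of 34.3 ± 10.4 FPKM was 2.45-fold that of the IGF1 group (14.0 ± 0.8; SD, n = 3 each). This gave the largest absolute log2 fold change among the 9 tested genes, -1.19 (SE 0.24, adjusted p = 0.0380), and -1.46 (SE 0.05, adjusted p = 2.9e-09) without Control replicate 2. Leaving out any 1 of the other 5 libraries kept it between -1.05 and -1.22 but raised the adjusted p to 0.147 to 0.164.

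Btg1 (chr10:96617006-96622809, plus strand), which encodes an antiproliferative protein linked to the arrest of cells, had 19.1, 13.2 and 16.6 FPKM with vehicle and 16.7, 17.4 and 17.8 FPKM after IGF1. The IGF1 libraries lay inside the range of the controls. The log2 fold change was 0.10 (SE 0.15, adjusted p = 0.604) and -0.04 (SE 0.06, adjusted p = 0.571) without Control replicate 2, so its sign rested on that library. Its 2 annotated pseudogenes, Btg1-ps1 and Btg1-ps2, were listed at 0 in all libraries.

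Of the transcriptional regulators of quiescence, Klf2 was higher in every IGF1 library and Cited2 overlapped between the groups. Klf2 (chr8:72319033-72321656, plus strand) encodes a zinc finger factor that keeps lymphocytes quiescent and that FoxO factors are known to activate. It had 65.6, 106 and 66.3 FPKM with vehicle and 139, 148 and 144 FPKM in the IGF1 libraries. The groups were apart, and Control replicate 2 was closer to the IGF1 libraries than to the other controls. The means were 79.3 ± 23.1 and 143 ± 4.5 FPKM (SD, n = 3 each), with a log2 fold change of 0.88 (SE 0.21, adjusted p = 0.0429) that missed the fold threshold. It passed both thresholds without Control replicate 2 (1.11, SE 0.03, adjusted p = 9.7e-10) and also with scaling to the 75th percentile (1.14, adjusted p = 0.0443). The Klf2 difference had the opposite sign to those of Sesn1, Ccng2 and Txnip.

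Cited2 (chr10:17723218-17725674, plus strand), a transcriptional co-regulator needed to maintain HSCs, stood at 102, 91.8 and 102 FPKM with vehicle and at 102, 99.9 and 98.2 FPKM after IGF1. Its values spanned the narrowest relative range of the 10 genes. The log2 fold change was 0.02 (SE 0.10, adjusted p = 0.886), or -0.03 (SE 0.03) without Control replicate 2.

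Control replicate 2 lay past the midpoint towards the IGF1 libraries in each of the 6 genes that differed by more than 0.5 without it. On a scale where 0 is the mean of the other controls and 1 the IGF1 mean (log2 values), it lay at 0.86 in Foxo3, 0.69 in Sesn1, 1.02 in Sesn3, 0.75 in Txnip, 0.57 in Ccng2 and 0.61 in Klf2. Over the 6619 genes that moved by more than 0.5 without that library, the median was 0.81 (quartiles 0.63 and 0.97), and the proliferation gene Mki67 was at 0.87. Ccng2 and Klf2 were thus below the lower quartile, with Control replicate 2 still nearer to the IGF1 libraries than to the other controls.

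Fold changes also moved with gene length, GC content and scaling. Removing trends on transcript length and GC content left none of the 9 genes called, with or without Control replicate 2. Sesn1 was then at -0.73 (adjusted p = 0.0473), Ccng2 at -0.65 (adjusted p = 0.0362), Klf2 at 0.44 (adjusted p = 0.0547), Foxo3 at 0.49 and Txnip at -0.12. Btg1 moved up to 0.58 (adjusted p = 0.0316). Scaling to the 75th percentile moved the median of all genes from -0.18 to 0.04 and the split of called genes from 207 higher and 484 lower to 301 higher and 260 lower. Measured from the median of all genes in the unscaled fit, Sesn1 was at -0.92, Ccng2 at -1.01, Txnip at -0.36, Klf2 at 1.06, Foxo3 at 0.85, Sesn3 at 0.52, Btg1 at 0.27, Cited2 at 0.20 and Foxo1 at 0.02.

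**Figure D3:**
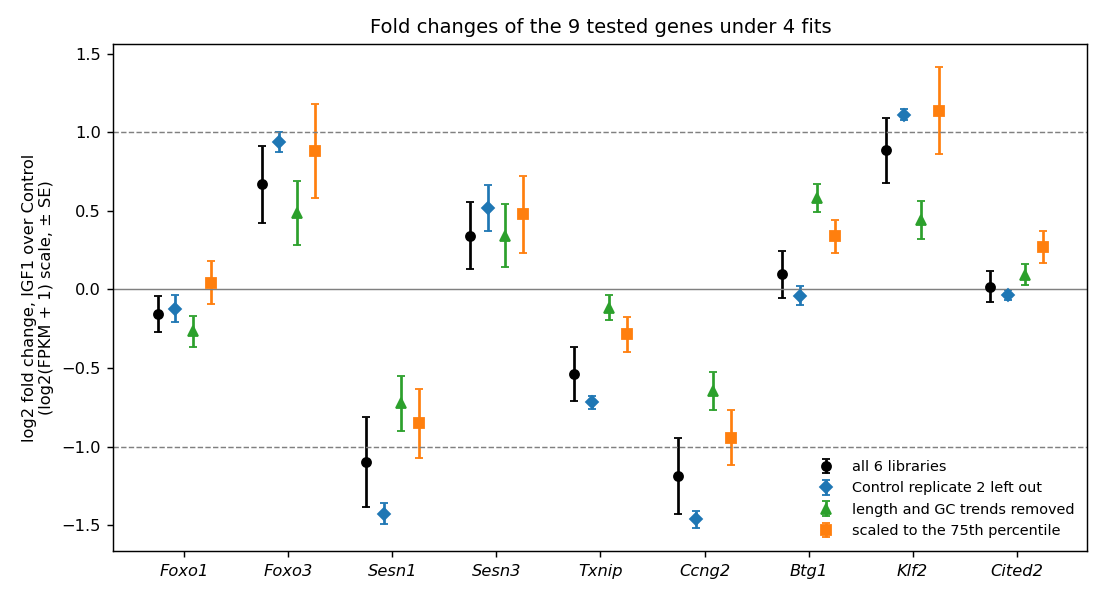
Log2 fold change (IGF1 over Control, points, bars ± SE) of the 9 tested genes with all 6 libraries, without Control replicate 2, with trends on length and GC content removed and with scaling to the 75th percentile. Dashed lines mark a 2-fold change. Sesn1, Txnip and Ccng2 are below 0 and Foxo3, Sesn3 and Klf2 above 0 in all 4 fits, while Foxo1, Btg1 and Cited2 change sign between fits, and Btg1 reaches 0.58 with the trends removed.

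Upstream of FoxO, 3 genes for its regulators and cofactors, Skp2, Ctnnb1 and Ywhah, fell in HSCs of IGF1-treated mice. The list holds the kinases that phosphorylate FoxO, the Ywha proteins that hold it in the cytoplasm, and the acetylases, deacetylases and ligases that modify it. Of 31 genes tested, 3 were called lower and 0 higher, at the backgrounds of 4.63% and 1.98%. The adjusted p alone was passed by 10 (8 lower, 2 higher), where 20.4% of all genes passed. The median log2 fold change was -0.56, against -0.18 for all genes. Skp2, which encodes a ubiquitin ligase subunit that targets Foxo1 for degradation, fell from 10.3, 4.36 and 10.6 FPKM to 2.41, 2.47 and 2.19 FPKM (log2 fold change -1.41, adjusted p = 0.0415). Ctnnb1, which encodes β-catenin, a FoxO cofactor, fell from 109, 57.9 and 109 FPKM to 38.1, 39.0 and 38.2 FPKM (-1.18, adjusted p = 0.0412). Ywhah fell from 323, 194 and 327 FPKM to 129, 130 and 134 FPKM (-1.06, adjusted p = 0.0392). In each of them Control replicate 2 was between the other libraries. Leaving out Control replicate 2, they had log2 fold changes of -1.77, -1.48 and -1.30 in that order, and 8 of the list were called lower and 2 higher, where 20.6% and 12.3% of all genes were. With 75th percentile scaling 1 was called higher and 1 lower, with quantile normalization 3 lower, and with the length and GC trends removed 1 lower.

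Among other known FoxO targets, Sesn2, Tnfsf10 and Bnip3 fell. Of 34 genes tested from a list of 40, 3 were called lower and 0 higher, where 4.63% and 1.98% of all genes tested were, with 18 fold changes above 0 and 16 below and a median of 0.07. Sesn2, the sestrin absent from the 10 genes, fell from 4.77, 2.18 and 4.81 FPKM to 1.24, 1.26 and 1.2 FPKM (-1.09, adjusted p = 0.0429). Tnfsf10, which encodes the death ligand TRAIL, fell from 9.57, 4.54 and 9.80 FPKM to 3.0, 3.23 and 2.93 FPKM (-1.08, adjusted p = 0.0472). Bnip3, a mitophagy receptor gene, fell from 42.1, 20.8 and 45.4 FPKM to 13.6, 13.7 and 12.6 FPKM (-1.30, adjusted p = 0.0425). With the adjusted p alone, 7 genes were higher and 6 lower, where 20.4% of all genes passed (654 higher and 1476 lower of 10449). The higher ones, named after their values were seen, were the cyclin-dependent kinase inhibitor genes Cdkn1a (0.76) and Cdkn1b (0.98), the growth arrest genes Gadd45a (0.48), Gadd45b (0.87) and Gadd45g (0.68), the apoptosis gene Bbc3 (0.75) and Pink1 (0.61). Cdkn1a was at 67.1, 69.1 and 67.4 FPKM with vehicle and 111, 120 and 116 FPKM after IGF1, so that here Control replicate 2 lay with its own group. The lower ones besides the 3 called were Sod2 (-0.39) and Prdx3 (-0.64), which encode mitochondrial antioxidant enzymes, and Atg12 (-0.96). The direction of the calls moved with the scaling: with 75th percentile scaling 3 were called higher and 1 lower, with quantile normalization 2 and 2, and with the length and GC trends removed 1 and 1. Without Control replicate 2, 9 of the 34 were called lower and 2 higher, where 20.6% and 12.3% of all genes were. Sesn2 (-1.37), Tnfsf10 (-1.40) and Bnip3 (-1.65) were called there too, and so were Cdkn1b (1.23) and Atg12 (-1.23), while Cdkn1a (0.77) stayed below 2-fold.

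Of genes tied to HSC quiescence other than through FoxO, Ndn and Meis1 were lower in each IGF1 library than in any control, without passing both thresholds. Of 21 tested from a list of 25, 0 passed both in limma, where 6.61% of all genes did, 8 had an unadjusted p under 0.05, against 53.4%, and 5 passed the adjusted p alone (4 lower, 1 higher), against 20.4%. The median was -0.24, close to that of all genes. Meis1, which encodes a homeobox factor of HSCs, had 44.5, 16.8 and 45.2 FPKM with vehicle and 13.8 to 15.2 FPKM after IGF1 (-1.13, adjusted p = 0.0675). Ndn, which encodes the growth suppressor necdin, had 5.36, 4.62 and 5.63 FPKM with vehicle and 2.30, 2.19 and 2.25 FPKM after IGF1 (-0.93, adjusted p = 0.0286), and Control replicate 2 lay near the other controls. Leaving out Control replicate 2 gave 5 called lower, Meis1 (-1.58) and, just past 2-fold, Ndn among them, and 1 higher, where 32.9% of all genes were called, and voom on recovered reads called 2, both lower.

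**Figure D4:**
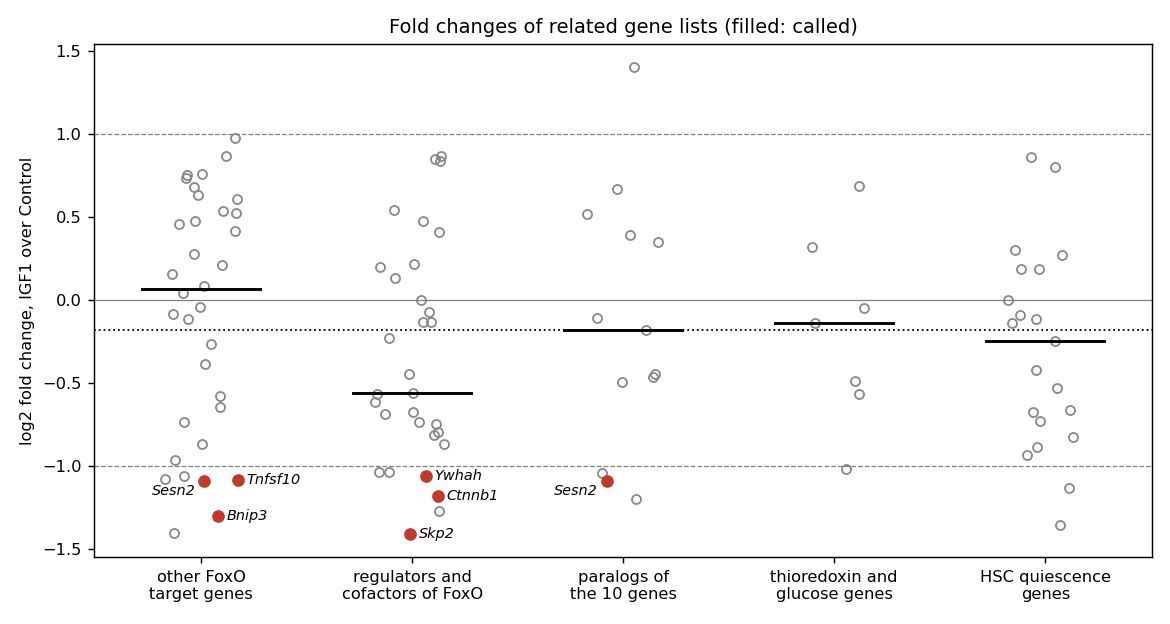
Log2 fold change (IGF1 over Control) of each tested gene in 5 lists around the 10 genes (34 other FoxO targets, 31 regulators and cofactors, 13 paralogs, 7 thioredoxin and glucose genes and 21 HSC quiescence genes). Filled red points with names are called genes, black bars are list medians, the dotted line is the median of all genes, -0.18, and dashed lines mark a 2-fold change. Sesn2 is in 2 of the lists, and every called gene is below 0.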

How the data were processed

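RNA-seq values of sorted HSCs were used from 3 Control and 3 IGF1 libraries. The submitters' processing notes name fastp, HISAT2 and StringTie with the builds GRCm38 and mm10, while the paper's methods name fastp, RSEM and DESeq2, so the quantifier of these files is not settled. The authors deposited 1 value per gene symbol, 21878 rows in each library, and these deposited values were taken as FPKM. Within a gene they rise in whole steps, which gave whole reads for 15638 of 15640 genes with a value above 0 (99.99%, to within 0.01 reads), against 1 of 1000 jittered rows. Voom on these reads called 1056 genes and was an alternative only. The total depth is approximate, and the ratios between libraries are not.

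The 10449 genes that reached 1 FPKM in 3 or more libraries were compared in limma (version 3.58.1, lmFit and eBayes with a trend, under R 4.3.3) after taking log2(FPKM + 1), and were called at the study's thresholds of fold over 2 and Benjamini-Hochberg adjusted p under 0.05. Scripts were tested on simulated data. Single values were also compared by exact permutation tests, 2-sided, whose smallest p here is 0.1. Gene positions came from GENCODE M21 and promoters from RefSeq (GRCm38.p6). The members and lists were chosen with earlier results of these data known. Named besides the 10 genes were, per list, the called genes of smallest adjusted p (at most 4), or the largest fold changes where fewer than 2 were called, any tested paralog or thioredoxin gene, and the 3 genes most like each FoxO factor. Cdkn1a and the other targets named by adjusted p alone fall outside this rule. Results of some genes that the rule names are not reported here.

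Alternatives were 75th percentile scaling, quantile normalization, pseudocounts of 0.1 and 5, no filter or a minimum of 5 FPKM, a replicate block, no variance trend, library weights, leaving out each library, removal of length and GC trends (both known for 96.7% of genes tested), the adjusted p alone and voom. Voom, 75th percentile scaling and trend removal were each also run without Control replicate 2, a choice made after seeing the data.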

Additional observations from a re-analysis of the deposited data

How the results depend on the processing

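With 3 libraries per group and 1 control apart, the calls were fragile, and counting depth limits Foxo4 and Sesn3. Replicate numbers did not pair the libraries (correlations of deviations -0.06, -0.05 and 0.01 for numbers 1, 2 and 3). With a replicate block 0 genes were called in all, among them 0 of the 10 genes, 0 other FoxO targets and 0 regulators. Leaving out 1 library at a time gave 0 to 3438 called genes (691 with all libraries), 0 to 3 of the 10 genes (main value 2), 0 to 11 other targets (3), 0 to 10 regulators (3) and 0 to 6 quiescence genes (0), with the highest counts all from leaving out Control replicate 2. The median of the tested members then ranged from -0.0389 to 0.0435 (0.0172 with all libraries). The cause of these changes was not tested.

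Of all genes, 223 were called with a pseudocount of 5, 374 with no filter, 3435 with library weights, 314 with length and GC trends removed, 2130 by the adjusted p alone and 1056 by voom. Of the 10 genes, 1 was called with 75th percentile scaling (Klf2, higher), 0 with quantile normalization, 1 with a pseudocount of 5 and 1 with no filter (Ccng2 in each), and 0 with length and GC trends removed. Other FoxO targets came to 4 with 75th percentile scaling (3 higher, 1 lower), 4 with quantile normalization (2 and 2), 2 with trends removed (1 and 1), 5 with a pseudocount of 0.1, 1 each with a pseudocount of 5, no filter and a minimum of 5 FPKM, 11 with library weights, 13 by the adjusted p alone and 5 by voom. Regulators came to 10 with library weights, 1 with trends removed and 10 by the adjusted p alone. Quiescence genes came to 1 with 75th percentile scaling, 2 with quantile normalization, 2 with a pseudocount of 0.1, 5 with library weights, 1 with trends removed, 5 by the adjusted p alone and 2 by voom. The median of the tested members was 0.2706 with 75th percentile scaling, -0.055 with library weights and 0.0933 with trends removed. Of the called genes, 30.0% were higher in the main analysis, 53.7% with 75th percentile scaling (301 higher, 260 lower), 48.8% with quantile normalization (304 and 319) and 51.0% with trends removed (160 and 154).

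The 3 settings without Control replicate 2 were chosen after seeing the data. Voom then called 4321 genes in all, 4 of the 10 genes, 14 other targets, 15 regulators and 9 quiescence genes, with a median of -0.0388. After 75th percentile scaling the counts were 3110, 4, 16, 9 and 4, with a median of 0.2915. With length and GC trends removed they were 2088, 0, 6, 6 and 3, with a median of 0.081.

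Signs turned in genes near 0. Foxo1 (-0.1541) was 0.0413 with 75th percentile scaling and 0.1457 when Control replicate 2 was also left out. Btg1 (0.0958, and -0.0389 to 0.2109 when 1 library was left out) was -0.055 with library weights, -0.0389 without Control replicate 2 and -0.0388 under voom without it. Cited2 (0.0172) was -0.0085 with quantile normalization, -0.0337 with library weights, -0.0348 without Control replicate 2 and -0.0337 under voom without it. Foxo3, Sesn1, Sesn3, Txnip, Ccng2 and Klf2 kept their direction in every setting run.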

Other observations

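Relatives of the 10 genes did not all move with them. Of 13 tested paralogs 1 was called, Sesn2 (lower), where 6.61% of all genes were, and the median log2 fold change was -0.18, equal to that of all genes. Klf4, a relative of Klf2, had 2.44, 12.8 and 2.47 FPKM with vehicle and 13.5, 13.5 and 13.5 FPKM after IGF1, with a log2 fold change of 1.40 (SE 0.55, adjusted p = 0.0872). Control replicate 2 was nearly at the IGF1 level there, and without that library the fold change was 2.07 and called. Ccng1, the paralog of Ccng2, was at 27.7, 9.32 and 27.0 FPKM and then 8.56, 9.14 and 8.87 FPKM (-1.04, adjusted p = 0.0865). Arrdc3, an arrestin-domain relative of Txnip, was at 15.7, 4.0 and 16.4 FPKM and then 3.81, 3.81 and 4.24 FPKM (-1.19, adjusted p = 0.0958). Both were called without Control replicate 2, at -1.52 for Ccng1 and -1.78 for Arrdc3. Of the 13 paralogs, 3 were then called lower (Sesn2 as well) and 1 higher (Klf4), where 20.6% and 12.3% of all genes were. Tob2, a relative of Btg1, showed no such shift of Control replicate 2, with 17.1, 18.2 and 16.0 FPKM against 27.3, 27.5 and 28.3 FPKM, a log2 fold change of 0.67 (SE 0.10, adjusted p = 0.0287) below the 2-fold threshold.

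Of 7 tested genes for thioredoxins and glucose sensing around Txnip, 0 were called in limma with all libraries, against 6.61% of all genes. An unadjusted p under 0.05 was found for 2, against 53.4%, and 0 passed the adjusted p alone, against 20.4%. Without Control replicate 2, 3 were called, where 32.9% of all genes were. Those were Txn1 (1.07), Txnrd1 (-1.48) and Slc2a1 (-1.12). Txn1, which encodes the thioredoxin that Txnip binds, had 309, 690 and 312 FPKM with vehicle and 643, 655 and 658 FPKM after IGF1 (0.69, adjusted p = 0.138), with Control replicate 2 above every IGF1 library. Txnrd1, the thioredoxin reductase gene, had 54.6, 20.1 and 54.5 FPKM and then 18.6, 19.0 and 19.0 FPKM (-1.02, adjusted p = 0.0824). Slc2a1, the glucose transporter gene whose product Txnip restrains, had 25.5, 7.40 and 25.2 FPKM and then 10.7, 11.8 and 11 FPKM (-0.57, adjusted p = 0.326), the level of Control replicate 2 being under all 3 IGF1 levels.

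Immediate early genes, which respond to handling as well as to growth factors, summed to 4687, 2792 and 4683 FPKM with vehicle and 3415 to 3468 FPKM after IGF1. Of 12 tested, 1 was called, where 6.61% of all genes were, and the median log2 fold change was -0.06 (5 above 0 and 7 below). The called gene, Fosb, rose from 13.0, 29.9 and 13.3 FPKM to 55.7, 53.7 and 54.3 FPKM (log2 fold change 1.6, adjusted p = 0.0369). Without Control replicate 2, 1 was called higher (Fosb) and 1 lower (Nr4a1, -1.70), where 12.3% and 20.6% of all genes were.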
